A study of Gallus gallus with 4 samples.

Results

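The genes described here were listed as genes of the chicken Z chromosome and were followed across 4 arrays of posterior eye tissue. They form a list of 54 genes, picked as genes of Z and not by a threshold on their values. Earlier results of these data were known when they were picked. A probe set annotated with exactly 1 symbol was found for 49 of them, out of 13009 genes measured in all. NPR2, MALT1, NIPBL, HINT1 and SMAD4 had no such probe set. RefSeq placed SMAD4 on chromosome 25, not on Z, and gave no chromosome under the symbols MALT1 and NIPBL. Of the 49 genes, 48 were placed on Z by RefSeq for the assembly GRCg7b, while NEDD4L, a ubiquitin ligase, was placed on W and is given apart. The list is called the listed Z genes below and stands for these 48, beside 605 measured genes of Z in total.

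Retina, RPE and choroid came from the right eyes of Leghorn/New Hampshire chicks, all labelled male, and RNA of 5 chicks was pooled for each array. Control chicks wore no lens, and the other chicks wore a translucent occluder over the right eye for form deprivation (FD) and were collected at 0, 6 or 24 hr after it came off. Their arrays are called 0 hr, 6 hr and 24 hr, with FD before the time in the plots. Age was 11 days after hatching, or 12 days for 24 hr. The protocol gives 10 days of occlusion. The labels, however, count 7 days post-occlusion for the 0 hr and 6 hr arrays and 8 days for 24 hr. The control chicks, which wore no occluder, also carry the label of 7 days. Each condition is a single array of pooled RNA, so that no difference below has a replicate check or a p-value, and fewer cells of a type cannot be told apart from less RNA per cell.

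In birds the male carries a pair of Z chromosomes and the female carries Z and W, so that genes of W occur only in females. No mechanism is known that silences a whole Z chromosome in chickens, and compensation for the unequal dose is local and incomplete: some Z genes are expressed at like levels in both sexes while many others are higher in males. The size of a sex difference therefore varies from gene to gene, and DMRT1, which directs testis formation, is the best known Z gene whose dose matters. HINTW, a gene of W, stood at 12.67 on the control array by its brighter probe set and at 5.96, 5.77 and 5.75 on the 0 hr, 6 hr and 24 hr arrays, in log2 expression. Its other probe set stood at 6.04 on the control array and between 4.92 and 5.07 on the form-deprived arrays. The dose of Z in the control pool and form deprivation cannot be told apart in any difference from the control array.

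The values are log2 expression per probe set after RMA, with a gene taken as the median of its probe sets. The median over all probe sets was the same on the 4 arrays to within the last deposited digit. A gene is called above the dim limit where its mean level exceeded 6.28, which 60 percent of probe sets did not reach, and 32 of the 48 listed Z genes passed it while 16 were dim. Probe sets of the same gene disagreed in their difference from control by an SD of 0.435 at 0 hr, 0.292 at 6 hr and 0.315 at 24 hr, over 3079 genes above the limit with several probe sets. The tissue labels were met by cone markers, of which 7 of 7 measured were above the limit, and pigment epithelium markers, with 7 of 7, whereas 1 of 3 rod markers (GNAT1 and PDE6B were dim) and 3 of 8 markers of vessels and stroma were (PECAM1, KDR, VWF, COL1A2 and LUM were dim). On the 0 hr array 5 of 7 cone markers were below control, the median of the 7 being -1, and all 9 markers of amacrine and horizontal cells were lower, with mean levels of 9.84, 8.89, 9.41 and 9.67 on the control, 0, 6 and 24 hr arrays. The 4 ganglion cell markers were lower there too, with mean levels of 9.58, 8.26, 8.84 and 9.36 in the same order. Markers of vessels and stroma went the other way at 0 hr, with 6 of 8 higher and a median of 0.215. So did those of smooth and striated muscle, with 5 of 6 higher and a median of 0.378. The median of every other marker list was below 0 there. The gap between the ends of the β-actin control transcript was 3.72 at 0 hr and 2.39 to 2.85 on the other arrays. Hybridisation controls differed from control by -2.995 to -0.818 at 6 hr and 24 hr, and by -0.308 to -0.172 at 0 hr, where the poly-A controls were higher by 0.583 to 0.697. At 6 hr and 24 hr the poly-A controls differed from control by -1.741 to -0.44. The part of these shifts in the differences of Z genes was not tested.

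Most of the listed Z genes had higher expression on each form-deprived array than on the control array. At 0 hr 37 of the 48 genes were higher, 10 lower and 1 equal, with a median log2 difference of 0.27, which is 1.21-fold. Over all 13009 genes 49.4% were higher and the median was 0. At 6 hr 42 of the 48 were higher (49.0% of all genes) with a median of 0.28, and at 24 hr 35 were higher (46.3% of all genes) with a median of 0.198, beside medians of 0 and -0.015 over all genes. These 3 differences share the control array and are not independent of each other.

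Among the 32 listed Z genes above the dim limit, the medians were 0.463 at 0 hr, 0.635 at 6 hr and 0.443 at 24 hr, which are 1.38-fold, 1.55-fold and 1.36-fold. Of these genes 26 were higher at 0 hr (45.3% of all genes above the limit), 30 at 6 hr (49.4%) and 27 at 24 hr (43.6%). At 0 hr 8 of them were higher by at least 1 on the log2 scale, against 4.59% of the 6084 genes above the limit. At 6 hr 9 were higher by at least 1, against 1.82%, and at 24 hr 4 were, against 0.986%. In none of the 3 comparisons was a listed Z gene lower by at least 1, where 4.59%, 1.20% and 1.43% of all genes above the limit were. Such shares of 32 genes amount to few or none. With the brightest probe set of each gene 2 were at 0 hr, VCP at -1.25 and NPR3 at -1.04.

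**Figure D1:**
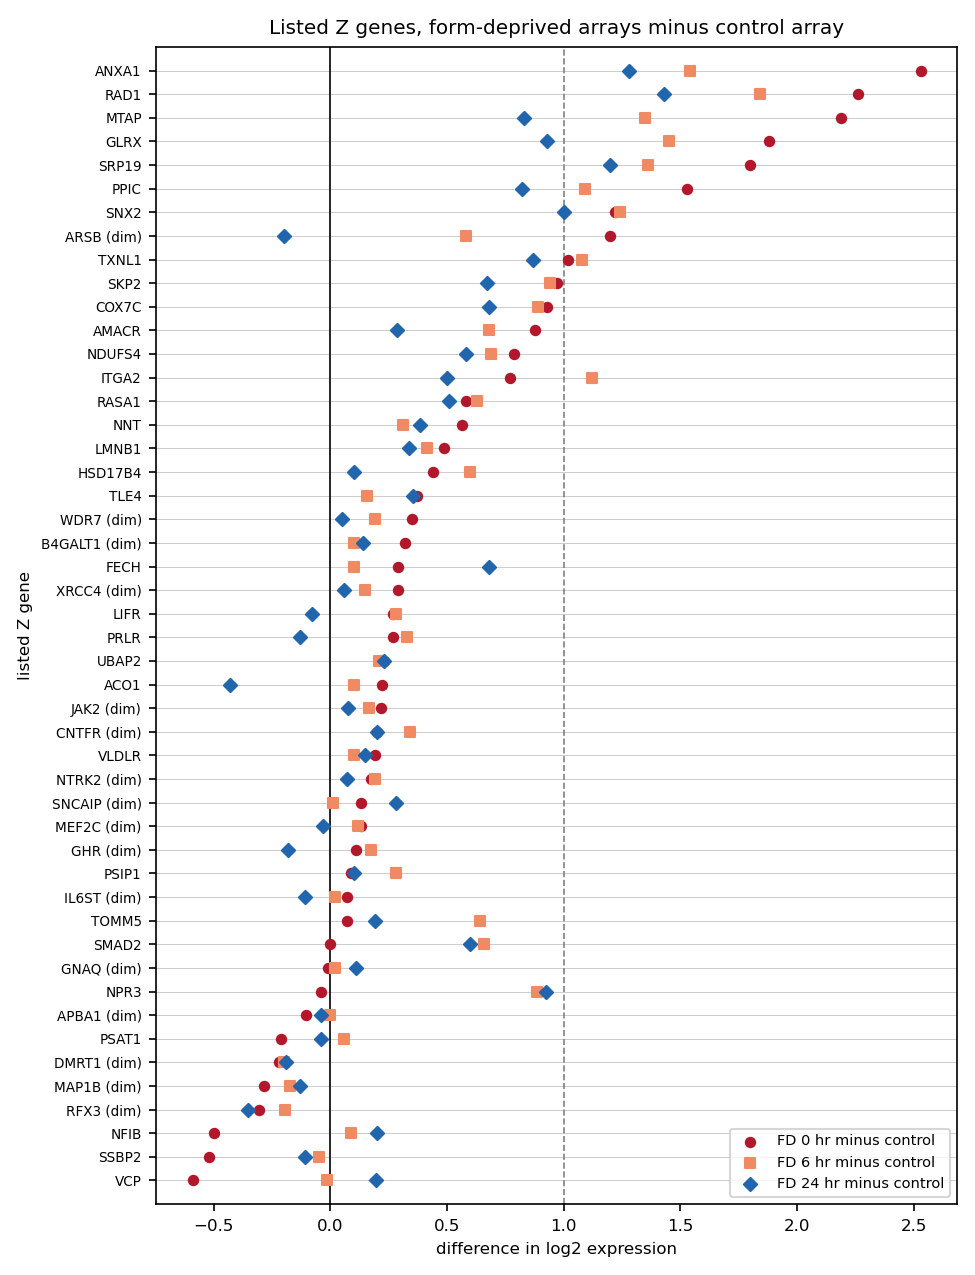
Difference in log2 expression of each of the 48 listed Z genes for 0 hr, 6 hr and 24 hr minus the control array, ordered by the 0 hr difference, with 1 array per condition and no error bars. Points right of the solid line were higher than control, and the dashed line marks 1. The genes run from VCP at -0.59 to ANXA1 at 2.53 for 0 hr.

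The genes furthest above control were not of one function. ANXA1, an annexin that binds membranes and restrains inflammation, had a level of 6.17 on the control array and of 8.70, 7.71 and 7.45 at 0 hr, 6 hr and 24 hr. Its differences of 2.53, 1.54 and 1.28 were 5.78-fold, 2.91-fold and 2.43-fold, with the 0 hr array highest and the control array lowest. RAD1, part of the checkpoint clamp at damaged DNA, had a level of 6.70 on the control array and of 8.96, 8.54 and 8.13 on the form-deprived arrays. The order of the arrays was the same as for ANXA1, and the differences from control were 2.26, 1.84 and 1.43.

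MTAP, which salvages methionine from the by-product of polyamine synthesis, had a level of 6.28 on the control array and of 8.47, 7.63 and 7.11 on the form-deprived arrays. GLRX, a glutaredoxin that removes glutathione from proteins, had a level of 7.43 on the control array and of 9.31, 8.88 and 8.36 on the others. Both were at least 1.35 above control at 0 hr and 6 hr and less than 1 above it at 24 hr, by 0.83 for MTAP and 0.93 for GLRX. ARSB, a lysosomal sulfatase of chondroitin and dermatan sulfate, differed from them. It was at 5.17 on the control array, 6.37 at 0 hr, 5.75 at 6 hr and 4.97 at 24 hr, so that control was not its lowest array, and as a dim gene it is not among the 8 genes counted at 1 or above.

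SRP19, a subunit of the signal recognition particle, had a level of 8.19 on the control array and of 9.99, 9.55 and 9.39 at 0 hr, 6 hr and 24 hr. PPIC, a cyclophilin that folds proteins, had a level of 7.97 on the control array and of 9.50, 9.06 and 8.79 on the others. Both had the control array lowest and the 0 hr array highest. SNX2, a sorting nexin of endosomes, had a level of 6.99 on the control array and of 8.21, 8.23 and 7.99 on the form-deprived arrays. TXNL1, a thioredoxin-like protein, had a level of 9.79 on the control array and of 10.81, 10.87 and 10.66 on the others. For SNX2 and TXNL1 the form-deprived arrays lay within 0.24 and 0.21 of each other, and the gap to control was 1.22, 1.24 and 1 for SNX2 and 1.02, 1.08 and 0.87 for TXNL1. ANXA1, RAD1, MTAP, GLRX, ARSB, SRP19, PPIC, SNX2 and TXNL1 rested on a single probe set each.

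**Figure D2:**
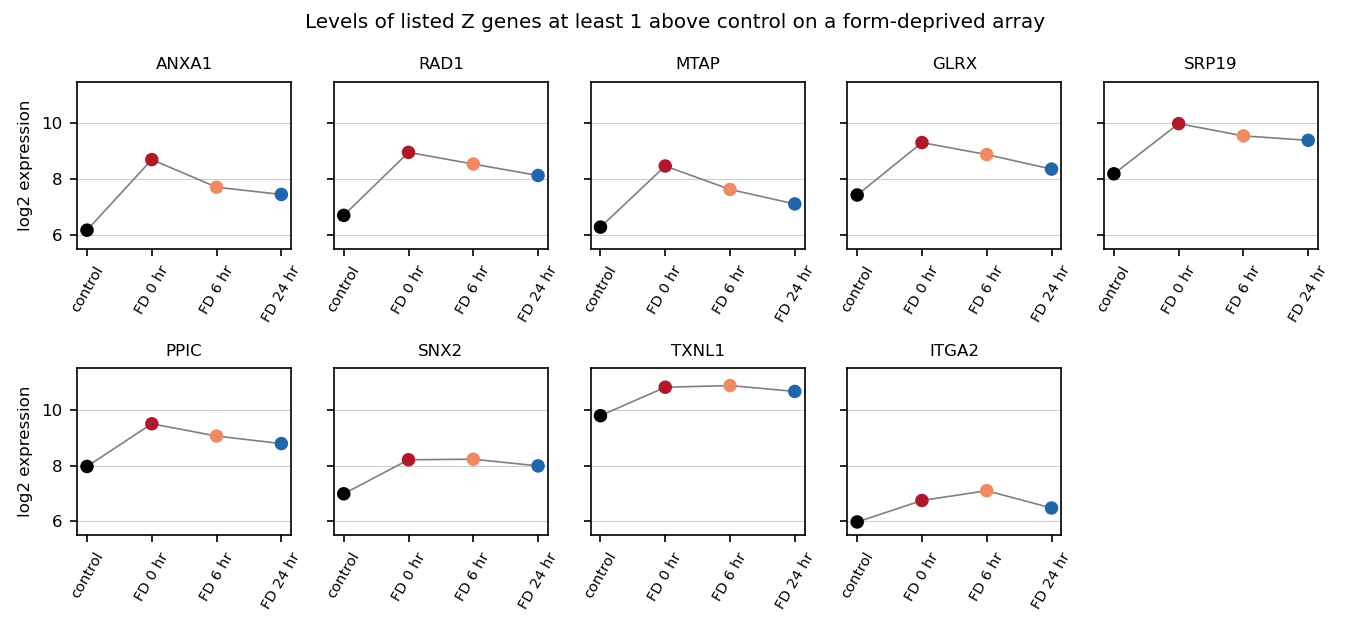
Log2 expression on the control, 0, 6 and 24 hr arrays of the 9 listed Z genes above the dim limit that were at least 1 above control on a form-deprived array, 1 array per point with no error bars. The control array was the lowest in all 9, which this choice of genes favours, from 5.98 for ITGA2 to 9.79 for TXNL1.

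The listed receptors were mostly a little higher than control. Of the 9 measured, 8 were higher at 0 hr with a median of 0.19, all 9 at 6 hr with a median of 0.28, and 5 at 24 hr with a median of 0.07. The direction of the 24 hr median turned with a stricter dim limit, to -0.08. Over all 605 measured genes of Z, 74.5%, 74.0% and 67.4% were higher at these times, and over all genes 49.4%, 49.0% and 46.3%. The counts of the groups by role, here and below, stand beside these shares. ITGA2, a subunit of a collagen-binding integrin, stood at 5.98 on the control array, 6.75 at 0 hr, 7.10 at 6 hr and 6.48 at 24 hr, and had the largest difference of these receptors at 6 hr, 1.12. The cytokine receptors CNTFR, LIFR and IL6ST, which bind ciliary neurotrophic factor together, were above control by 0.20, 0.27 and 0.07 at 0 hr, and CNTFR and IL6ST were dim. At the same time the growth hormone receptor GHR, a dim gene, was at 0.11 and the prolactin receptor PRLR at 0.27. VLDLR, a receptor of lipoproteins and reelin, was at 0.19 and NTRK2, the receptor of brain-derived neurotrophic factor and dim here, at 0.175. The brighter probe set of GHR was above the dim limit on every array and gave 0.29, beside -0.07 for the other. NPR3, which clears natriuretic peptides, stood at 6.07 on the control array, 6.03 at 0 hr, 6.955 at 6 hr and 6.995 at 24 hr. Its pair of probe sets went opposite ways at 0 hr, with differences of -1.04 and 0.96, and the same way at 6 hr (0.36 and 1.41) and 24 hr (0.28 and 1.57).

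The 5 genes of mitochondrial proteins, all above the dim limit, were higher than control on every form-deprived array. Of all Z genes above the limit 80.3%, 85.1% and 77.7% were higher at 0 hr, 6 hr and 24 hr. The medians of the 5 genes were 0.565 at 0 hr, 0.64 at 6 hr and 0.58 at 24 hr. COX7C, a subunit of cytochrome c oxidase, was above control by 0.89 at 6 hr, and both of its probe sets, one bright and one dim, gave between 0.66 and 0.98 in all 3 comparisons. NDUFS4 of NADH dehydrogenase was at 0.785 at 0 hr, with 0.39 and 1.18 by its probe sets. NNT, which makes NADPH in mitochondria, was at 0.565 and FECH, the last enzyme of haem synthesis, at 0.29 at 0 hr. TOMM5, of the import pore of the outer membrane, was at 0.07 at 0 hr and highest at 6 hr, by 0.64.

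Of the 8 metabolic enzymes outside the respiratory chain, 7 were higher at 0 hr with a median of 0.658, 8 at 6 hr with 0.59 and 5 at 24 hr with 0.12. Besides MTAP, GLRX and ARSB, they hold AMACR, which handles branched fatty acids, at 0.875 for 0 hr minus control, and HSD17B4, an enzyme of peroxisomal fatty acid oxidation, at 0.44. The aconitase ACO1 was at 0.22 and the galactosyltransferase B4GALT1, a dim gene, at 0.32. PSAT1, an enzyme of serine synthesis, stood at 6.91, 6.70, 6.97 and 6.87 on the control, 0, 6 and 24 hr arrays, which lie within 0.27 of each other.

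The 4 genes of the cell cycle, DNA repair and nuclear lamina were above control in all 3 comparisons, with medians of 0.728, 0.678 and 0.503. Of all Z genes 74.5%, 74.0% and 67.4% were above control in these comparisons. SKP2, which marks cell cycle inhibitors for degradation, was at 0.97 for 0 hr minus control, and LMNB1, a lamin, at 0.485. XRCC4, which joins broken DNA ends, was dim and at 0.29.

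Genes of transcription and chromatin had the lowest medians of the 7 role groups, -0.22 at 0 hr, 0.09 at 6 hr and -0.03 at 24 hr. The 0 hr median is the value of DMRT1, a dim gene, and its direction turned with the brightest probe set of each gene, to 0.15, as did that at 24 hr, to 0.14. Without dim genes the 0 hr median stayed below 0, with NFIB at -0.50 and SSBP2 at -0.52 beside PSIP1 at 0.09 and TLE4 at 0.37. Of these 7 genes 3 were higher and 4 lower at 0 hr, and 5 were higher by the brightest probe set. SSBP2, a binder of single-stranded DNA, stood at 6.92 on the control array, 6.40 at 0 hr, 6.87 at 6 hr and 6.81 at 24 hr. NFIB, a transcription factor of glial and neuronal development, stood at 6.87, 6.37, 6.96 and 7.07 in the same order of arrays. In both the 0 hr array was the lowest and the others lay close together. The 0 hr difference of NFIB was -0.50 between medians of the levels of its 4 probe sets and 0.39 by the brightest of them.

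RFX3, which directs genes of cilia, was dim and stood at 5.81, 5.505, 5.615 and 5.455 on the control, 0, 6 and 24 hr arrays. It was highest in control by this median and by its brighter probe set, at 7.31. The dimmer probe set was highest at 24 hr, at 4.54. DMRT1 had a level of 4.14 on the control array and of 3.92, 3.94 and 3.95 on the others, in the range of dim genes. Its differences of -0.22, -0.20 and -0.19 are between medians of the levels of 7 probe sets. The 0 hr differences of these probe sets ran from -0.22 to 0.15, so that the gene value was as low as the lowest of them. By the mean of the probe sets the 0 hr difference was -0.017, and by the brightest it was 0.15. Every probe set was below the dim limit on every array. The corepressor TLE4 was at 0.37 for 0 hr minus control, PSIP1, a chromatin reader, at 0.09 and MEF2C, a transcription factor that was dim, at 0.13. The probe sets of TLE4 gave 0.07 and 0.67. Those of PSIP1 ran from 0.09 to 0.80, the highest value being that of its brightest probe set.

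Signalling proteins were mixed, with 3 of 6 higher, 2 lower and 1 equal at 0 hr and medians of 0.108, 0.398 and 0.31 at 0 hr, 6 hr and 24 hr. Without the dim genes only SMAD2, RASA1 and ANXA1 of this group were left, and the 0 hr median was the value of RASA1, 0.58. SMAD2, which carries signals of TGF-β and activin to the nucleus, stood at 8.62 on the control array and the 0 hr array and at 9.28 and 9.22 at 6 hr and 24 hr. It had the smallest 0 hr difference of the listed Z genes, 0, beside differences of 0.66 and 0.60 at the later times. GNAQ, a G protein subunit, stood at 4.85, 4.84, 4.87 and 4.96, and APBA1, an adaptor of nerve terminals, at 4.545, 4.44, 4.545 and 4.505 on the control, 0, 6 and 24 hr arrays. Both were dim and their arrays lay within 0.12 and 0.105 of each other. The 0 hr differences of the probe sets of GNAQ ran from -0.01, the value of the gene, to 0.30, and the brightest gave 0.21. RASA1, which switches off RAS, was at 0.58 for 0 hr minus control, between medians of the levels of 5 probe sets. Their own 0 hr differences ran from 0.25 to 1.16. Without the probe sets that may read several transcripts RASA1 was at 1.16. That is the value of a single probe set, beside 0.64 and 0.73 for the others left. The dim kinase JAK2 was at 0.215.

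Of the 9 genes of protein folding, turnover, traffic and the cytoskeleton on Z, 7 were higher at 0 hr with a median of 0.35, and the same number at 6 hr with 0.21. Without dim genes these medians were 1.12 and 1.085. They hold both SRP19 and VCP, the gene with the lowest 0 hr difference on the list. VCP, an ATPase that extracts proteins for degradation, stood at 8.485 on the control array, 7.895 at 0 hr, 8.47 at 6 hr and 8.68 at 24 hr. Its brighter probe set gave -1.25 at 0 hr and the dimmer one 0.07. MAP1B, a microtubule protein of neurons, was dim and stood at 4.53, 4.245, 4.355 and 4.40 in the order control, 0 hr, 6 hr and 24 hr. SNCAIP, a partner of α-synuclein, was dim and at 0.13 at 0 hr, and WDR7, of vesicle acidification, dim and at 0.35.

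UBAP2, a ubiquitin-binding protein, was the only one of the 48 genes whose symbol RefSeq also gives to a W gene, UBAP2L2. Copies on W under any other name were not looked for. Their part in the values of other listed genes was therefore not tested. UBAP2 had a level of 8.87 on the control array and of 9.10, 9.08 and 9.10 on the form-deprived arrays, which lay within 0.02 of each other. NEDD4L, listed with the Z genes but placed on W, had a level of 8.03 on the control array and of 8.36, 8.26 and 8.17 on the others. Unlike HINTW it was lowest on the control array, and the 0 hr differences of its 5 probe sets ran from -0.16 to 0.61. Among the other 16 measured genes of W, HINTW included, 6 were lower by at least 1 on each form-deprived array. Over all 13009 genes, 302 were lower by that much at 0 hr, 87 at 6 hr and 104 at 24 hr. Some of the 6 genes of W stayed below the dim limit on every array.

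The sizes of the differences were spread over a wide range. Of the 32 listed Z genes above the dim limit, 6 were at 0 or below at 0 hr, 11 between 0 and 0.5, 7 between 0.5 and 1, and 8 at 1 or above. At 6 hr the same classes held 2, 12, 9 and 9 genes, and at 24 hr 5, 11, 12 and 4. The distance between the quartiles was 0.818 at 0 hr, 0.886 at 6 hr and 0.643 at 24 hr. Over the 5738 genes off Z and W that were above the limit it was 0.625, 0.47 and 0.405, with medians of -0.06, -0.01 and -0.05.

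The 237 other genes of Z above the limit had medians of 0.46, 0.44 and 0.35 for 0 hr, 6 hr and 24 hr minus control, with 80.2%, 84.0% and 76.8% of them higher. Of these, 51 were higher by at least 1 at 0 hr, 32 at 6 hr and 25 at 24 hr, and 1 was lower by at least 1 in each. Of all 269 genes of Z above the limit 21.9% were at 1 or above at 0 hr, beside 3.8% of the genes off Z and W.

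**Figure D3:**
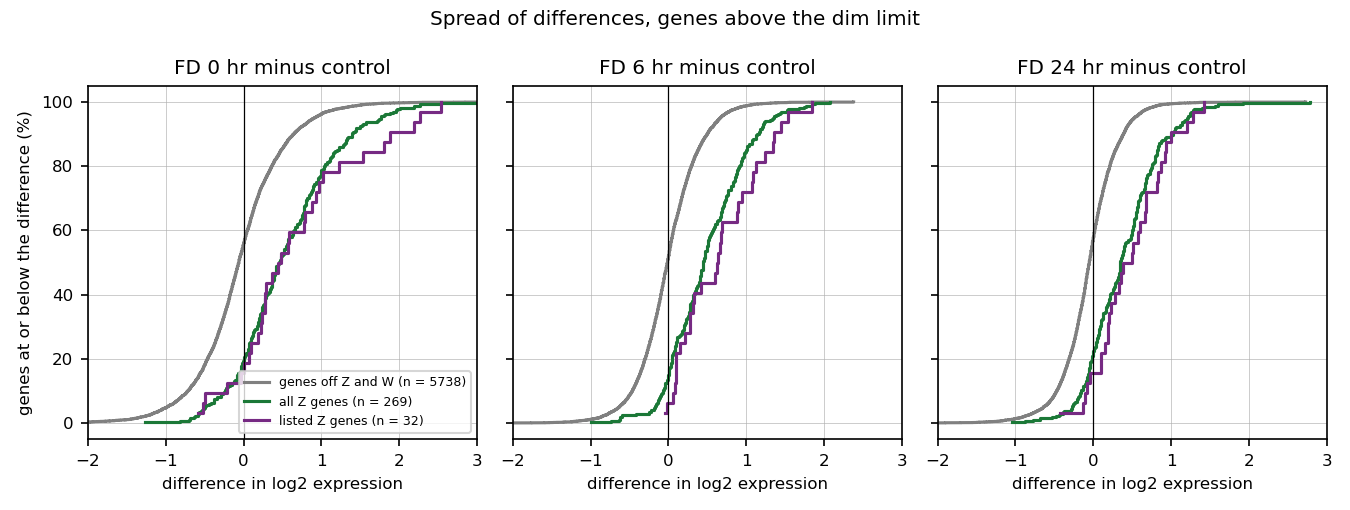
Cumulative share of genes (percent) at or below each difference in log2 expression from the control array, for the 32 listed Z genes, all 269 Z genes and 5738 genes off Z and W above the dim limit, with 1 panel per form-deprived array. The curves of Z genes lie to the right of the curve of the other genes in each panel, with medians of 0.46, 0.445 and 0.35 for all Z genes.

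Dim genes of Z differed less from control than brighter ones. Among the 16 dim genes of the list the medians were 0.13, 0.11 and 0.01 for 0 hr, 6 hr and 24 hr minus control, and over the 336 dim genes of Z they were 0.12, 0.06 and 0.043. With genes divided into 3 equal classes by level, Z had a median of 0.098 at 0 hr in the lowest class, 0.20 in the middle class and 0.503 in the highest. The genes off Z and W had 0.025, -0.03 and -0.06 in these classes.

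By chromosome, Z had the highest median at each time among the 29 chromosomes with at least 30 genes above the limit. The 28 other chromosomes ran from -0.318 to 0.11 at 0 hr, from -0.245 to 0.10 at 6 hr and from -0.175 to -0.003 at 24 hr. Chromosome 2, at 0.11, and chromosome 1, at 0.07, followed Z at 0 hr, and chromosome 24 was lowest. For 24 hr minus 6 hr, which holds no control array, Z was at -0.085 and ranked 28 of the 29 chromosomes. Only chromosome 1, at -0.09, was lower, and the highest of the others was at 0.085. Chromosomes 2, 3, 7 and 4 lay close to Z, at -0.073, -0.07, -0.065 and -0.06, so that this rank was not particular to Z.

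**Figure D4:**
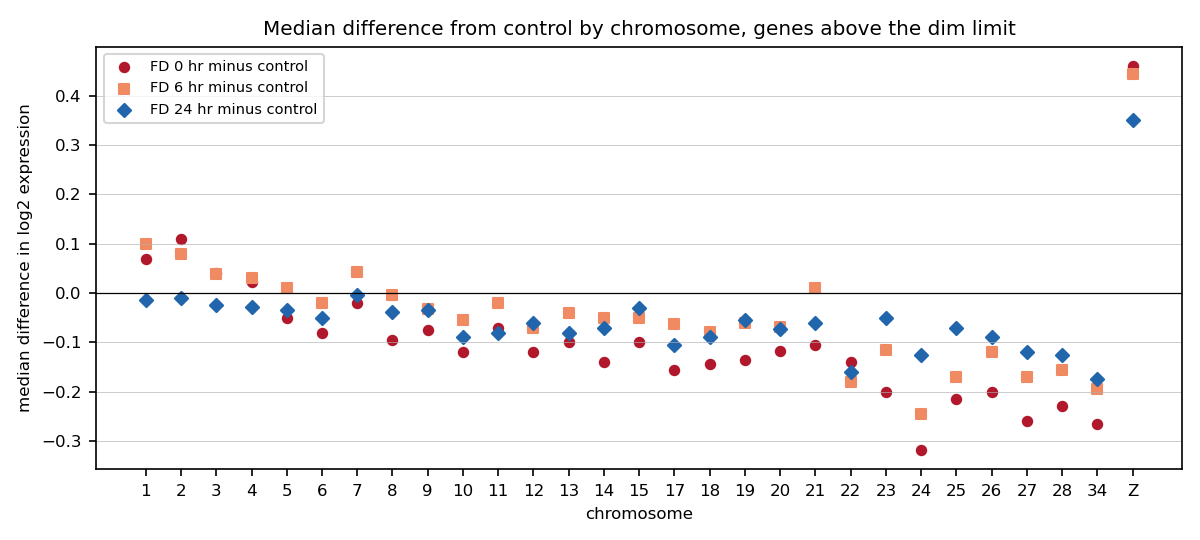
Median difference in log2 expression from the control array for each of 29 chromosomes with at least 30 genes above the dim limit, by form-deprived array. Z, at the right, lies at 0.46, 0.445 and 0.35, and no other chromosome is above 0.11.

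Along Z the differences were unequal. Measured Z genes were divided by their order into 10 bins of 60 or 61 genes, and the values are medians of the genes above the dim limit. The first and second bins were lowest at 0 hr, at 0.07 and 0.01, while the other bins lay between 0.42 and 0.755. At 6 hr these bins were at 0.21 and 0.095 and the others between 0.31 and 0.72. At 24 hr the second bin was lowest, at 0.045, followed by the fifth, at 0.18, and the first, at 0.26. The second bin holds both RAD1, at 2.26 for 0 hr minus control, and VCP, at -0.59. Its 7 listed genes had a median of 0.27, which, unlike the value of the bin, includes a dim gene, CNTFR. The fifth bin holds DMRT1, close to which lies a locus known in chickens for male-specific methylation. Of the 5 measured genes on either side of DMRT1, 5 in all were above the limit: CBWD1 and PUM3 at 1.315 and 1.20 for 0 hr minus control, VLDLR at 0.19, KANK1 at -0.03 and KCNV2 at -0.15. The listed genes MAP1B, DMRT1, VLDLR, RFX3, JAK2, NFIB and PSIP1 of this bin had a median of -0.22, beside 0.42 for the 27 genes above the limit. Of these 7 genes 4 were dim, and their median turned to 0.09 without dim genes and to 0.15 with the brightest probe sets.

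**Figure D5:**
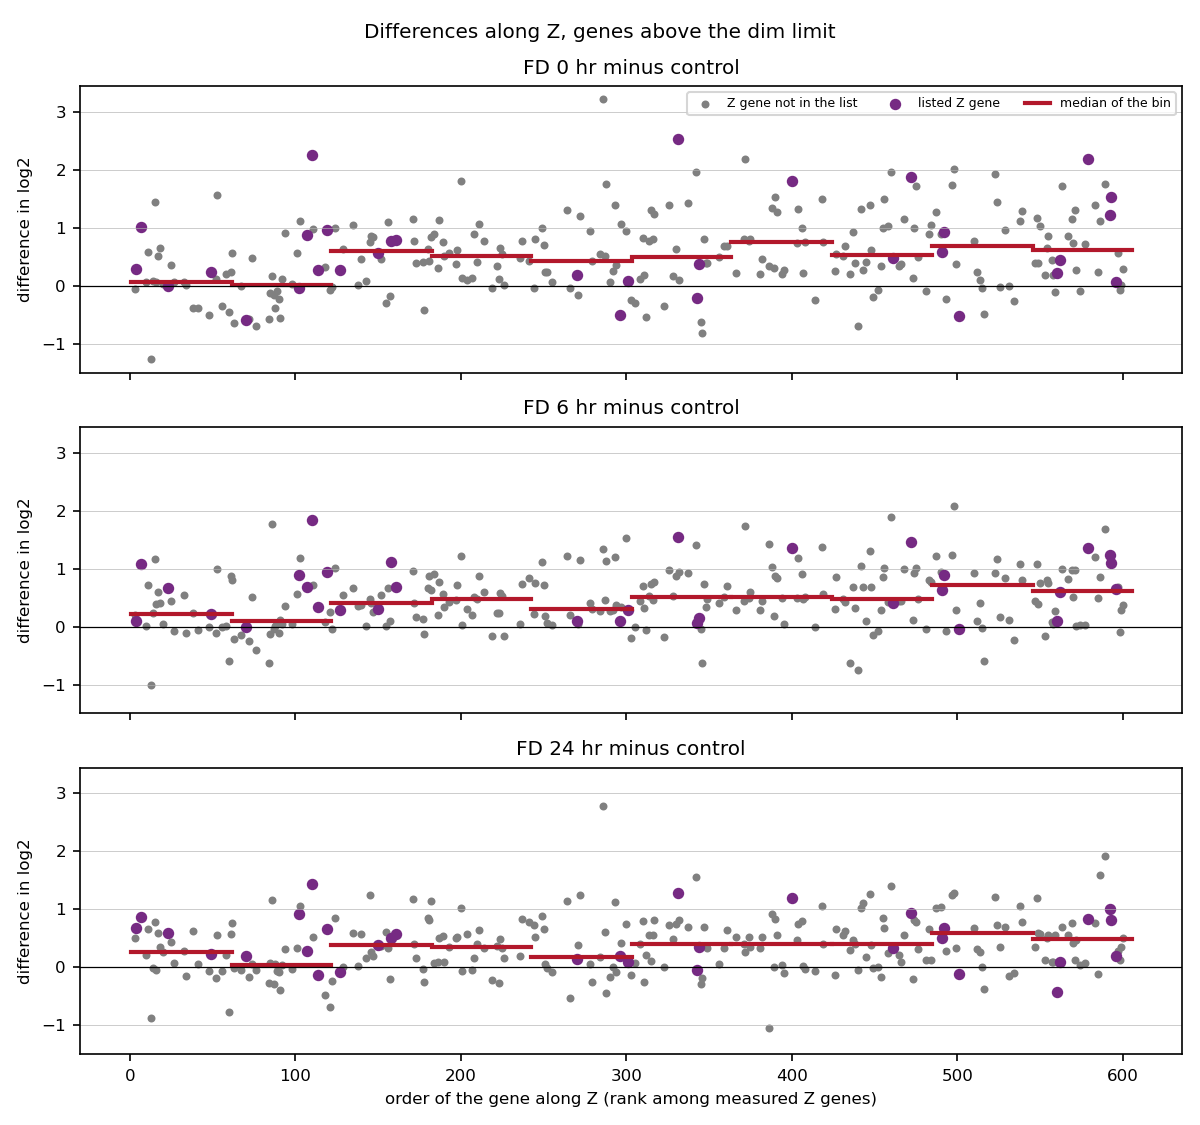
Difference in log2 expression from the control array against the order of the gene along Z (rank among 605 measured Z genes), for genes above the dim limit, with 1 panel per form-deprived array. Purple points are listed genes, grey points other Z genes and red lines the median of each of the 10 bins, lowest in the first and second bin at 0 hr (0.07 and 0.01).

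Relatives of the listed genes on other chromosomes were mostly lower than control at 0 hr. A list of 65 relatives held 50 genes that were measured and lay off Z and W. Of these, 16 were higher and 33 lower, with a median of -0.133, where 48.3% of all genes off Z and W were higher. At 6 hr and 24 hr 23 and 20 of the 50 were higher, with medians of -0.015 and -0.055. The shares of all genes off Z and W that were higher at these times were 47.9% and 45.4%. NDUFS3 of NADH dehydrogenase was highest at 0 hr, at 1.45, followed by the glutaredoxin GLRX2 at 0.655. The cyclophilin PPIB was lowest, at -1.04, beside 1.53 for PPIC on Z. The synuclein SNCB was at -0.95.

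From 6 hr to 24 hr 13 were higher and 35 lower, with a median of -0.135, and 46.6% of all genes were higher with a median of -0.01. Above the dim limit 8 of 32 were higher, where 44.1% of all such genes were, and the median was -0.195, beside -0.07 for the other Z genes and -0.03 for genes off Z and W. None differed by at least 1 in either direction, where 0.312% of the genes above the limit were higher and 0.937% lower by that much. At such shares few or none of the listed genes would be counted. FECH, higher by 0.58, and ARSB, at -0.78, were at the ends of the range. The distance between the quartiles was 0.304 over the 48 genes in this comparison, and 0.738 for 0 hr minus control, beside 0.25 and 0.405 over all genes. For 24 hr minus 0 hr 14 were higher (48.1% of all genes) and 32 lower, with a median of -0.155, and 3 were lower by at least 1 (1.37% of all genes), ARSB at -1.40, MTAP at -1.36 and ANXA1 at -1.25. Among the genes far above control, MTAP was at -0.84 and ANXA1 at -0.99 for 6 hr minus 0 hr, and SNX2 and TXNL1 at 0.02 and 0.06.

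Genes with a single probe set and genes with several differed in their values. The 20 listed genes above the limit with a single probe set had medians of 0.605, 0.80 and 0.635 for 0 hr, 6 hr and 24 hr minus control, and the 12 with several had 0.428, 0.363 and 0.345. All 8 genes at 1 or above at 0 hr belong to the former. Of the 24 listed genes with several probe sets, dim genes included, 17 had all of them on the same side of 0 at 0 hr, 15 at 6 hr and 13 at 24 hr.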

How the data were processed

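Total RNA of retina, RPE and choroid, pooled from 5 chicks per condition, was hybridised to 4 Affymetrix chicken arrays. Probe set values were made by the authors by RMA in Affymetrix Expression Console, and were deposited as log2 expression with 2 decimals. MAS5 is a further name in the processing notes of the submitters. The study's methods present data modelled jointly with the arrays of an earlier series; whether the deposited values are those of the joint run is not given in the sources used here. The values were used as they stand. The platform's annotation gave 1 symbol for 27178 of 38535 probe sets, several for 177 and none for 11180. Gene values were medians of probe sets with 1 symbol. Of 13009 genes, 12839 were placed on a chromosome through Entrez IDs in RefSeq (GRCg7b), which served for names, chromosomes and gene order only.

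Differences are between single arrays, so no test was run, and precision is limited by there being 4 arrays. Counts used a log2 difference of 1. The genes, role groups and lists were chosen with earlier results of these data known. All members were counted. Values on all 4 arrays are given for the 8 highest and 8 lowest at 0 hr minus control and the 3 closest to 0. They are also given for those at 1 or above later, those with a W copy by name and DMRT1. Of the relatives the 2 highest and 2 lowest are named. CBWD1, PUM3, KANK1 and KCNV2 were named after their values were seen. Alternatives changed the scaling, the choice of probe sets, the dim limit and the members. The summaries were tested on simulated arrays. The computations used Python 3.11.15, NumPy 2.4.6 and pandas 2.3.3, and the plots Matplotlib 3.10.9.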

Additional observations from a re-analysis of the deposited data

How the results depend on the processing

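No paired analysis was possible because each condition had a single array, and for the same reason no array could be left out. Over 10 alternatives (quantile normalisation, centring on genes off Z and W, the mean or the brightest of the probe sets, no probe sets that may read several transcripts, dim limits at the 50th, 60th and 70th percentile, no gene with a W copy, and NEDD4L included, the last chosen after seeing the data) no median of the whole list or of all Z genes changed direction. The median of the listed genes ran from 0.27 to 0.525 for 0 hr minus control, 0.27 to 0.65 for 6 hr and 0.195 to 0.482 for 24 hr. With dim limits at the 50th, 60th and 70th percentile the 6 hr median was 0.615, 0.635 and 0.65. Above the 70th percentile 24, 25 and 23 of the 26 remaining genes were higher than control at 0 hr, 6 hr and 24 hr, as fewer genes were counted. With dim genes included, the 6 hr median of all Z genes was 0.15. With the brightest probe sets 2 genes, not 0, were lower than control by at least 1 at 0 hr. Role groups and bins along Z were added after seeing the data. The 0 hr median of the transcription group turned from -0.22 to 0.15 with the brightest probe sets. It also turned to 0.09 and 0.23 above the 50th and 70th percentile, but stayed below 0 above the 60th. Only TLE4 and PSIP1 of this group were left above the 70th percentile. The 0 hr median of the listed genes of the fifth bin turned from -0.22 to 0.15 with the brightest probe sets. It turned to 0.09, 0.09 and 0.14 above the 50th, 60th and 70th percentile. Only VLDLR, PSIP1 and NFIB of this bin were left above the 50th and 60th, and only VLDLR and PSIP1 above the 70th. The 24 hr median of the receptors turned from 0.07 to -0.08 above the 70th percentile, where only PRLR, LIFR and VLDLR of them were left. Counts of genes higher by at least 1 stayed between 8 and 10 at 0 hr and 6 hr and at 4 at 24 hr. Signal close to the background limits what the dim genes can show. Of these, GHR, NTRK2, SNCAIP and RFX3 had a probe set above the main dim limit on every array.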
